A study of Mus musculus with 60 samples.

Results

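Arntl (also written Bmal1), Clock, Npas2, Nfil3 and Cry1, genes on the activator arm of the circadian clock or controlled together with it, were followed in lung, liver and forestomach of the same 20 mice. They were found by matching the RefSeq accession of each array probe to these symbols, which gave 1 probe for each of the 5 genes out of 20018 gene symbols on the array. The animals were male Muta Mouse, a transgenic strain built for mutation tests, about 10 weeks old. All of them received olive oil by gavage every day for 28 days, either alone (D0, mice 1 to 5) or with benzo(ghi)perylene (BghiP), a polycyclic aromatic hydrocarbon, at 6.25 mg/kg-bw/day (D1, mice 6 to 10), 12.5 mg/kg-bw/day (D2, mice 11 to 15) or 25 mg/kg-bw/day (D3, mice 16 to 20). Tissues were collected 72 hours after the last dose from mice kept on a light and dark cycle, and the time of day of collection is not given in the sources used here. Each tissue of each mouse was hybridized on 1 array, 60 in all, as Cy5-labelled RNA against Cy3-labelled universal mouse reference RNA, without dye swaps. A level below is the log2 ratio of Cy5 to Cy3, and p-values measure the spread between these mice.

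In the mammalian clock, BMAL1, the product of Arntl, pairs with CLOCK or its relative NPAS2 and switches on genes that carry an E-box, among them the Per, Cry, Nr1d and Dbp genes. PER and CRY proteins then inhibit that pair, and the nuclear receptors encoded by Nr1d1 and Nr1d2 repress Arntl, Nfil3 and other genes through ROR elements. NFIL3 is a repressor at D-boxes, where DBP, TEF and HLF are activators, and in liver these loops drive daily rhythms of metabolism and detoxification.

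The elements through which these loops act were looked for on both strands of the stretch from 250 bases before to 50 bases after each transcription start in RefSeq (build GRCm38.p6), in which the 5 genes have 8 annotated starts. The E-box was searched as CACGTG, the ROR element as TAGGTCA and the D-box as TTANGTAA, and no matches of different elements overlapped. They occur in 7.15%, 2.61% and 2.32% of 32851 promoters, respectively. A ROR element was found at Arntl and at Nfil3, on the opposite strand at the latter, and an E-box at Cry1. The stretches at Clock and Npas2 did not hold any of these letters, and no D-box was found at the 5 genes. The sequences below show the element in capitals with its flanks, 5′ to 3′ on the strand of the gene, with matches at Per1 and Per3, genes of the opposite arm, for comparison.
Arntl (ROR element at 30 to 36 bases after the start, chr7:113207530-113207559, plus strand): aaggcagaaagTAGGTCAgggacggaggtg
Nfil3 (ROR element, chr13:52981033-52981062, minus strand): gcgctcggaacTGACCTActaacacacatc
Cry1 (E-box, chr10:85185097-85185126, minus strand): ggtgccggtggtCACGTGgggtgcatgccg
Per1 (E-box, chr11:69098771-69098800, plus strand): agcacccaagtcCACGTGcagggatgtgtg
Per3 (D-box, chr4:151044852-151044881, minus strand): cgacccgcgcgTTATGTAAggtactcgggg
Of 23 other clock genes listed for comparison, 17 had a promoter in the same table. Among these an E-box was found at 4 genes (Per1, Tef, Ciart and Bhlhe41), a D-box at 3 (Per3, Rorb and Timeless) and a ROR element at 0.

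The scanner program called the Arntl probe (NM_007489, gene at chr7:113178471-113314126) well above background on 20 of 20 lung, 20 of 20 liver and 18 of 20 forestomach arrays. Clock (NM_007715, chr5:76209868-76305603) was above background on all 20 arrays of each tissue, and Nfil3 (NM_017373, chr13:52967209-52982878) on 20, 20 and 19. Npas2 (NM_008719, chr1:39193702-39363240) was above background on 3 lung, 0 liver and 3 forestomach arrays, and Cry1 (NM_007771, chr10:85131700-85185054) on 0 arrays. The log2 Cy5 signal of the Cry1 probe lay between 5.88 and 6.54 on the 60 arrays, and the reference signal of the Npas2 and Cry1 probes was above background on 1 array each. Therefore 3 of the 5 genes were tested, and ratios of Npas2 and Cry1 are those of dim spots in both channels.

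The arrays lay on 8 slides. Lung and forestomach shared 5 of them, with each dose once per tissue on each slide, while liver was on the other 3, so tissue and slide cannot be told apart for liver. Every dose had its own column of the slides, so dose and column cannot be told apart. The 4 markers of the tissue of each array were above background on all 20 arrays in each case: Sftpc, Sftpb, Scgb1a1 and Ager for lung, Alb, Apoa1, Ttr and Cps1 for liver, and Krt5, Krt14, Krt13 and Trp63 for forestomach. Some arrays also carried markers of other tissues. The lung of mouse 1 had a mean level of forestomach markers of 3.11 (next highest lung -0.21) and of skeletal muscle markers of 4.84, and the lung of mouse 20 had liver markers at 3.98 (next highest 0.17). Fat cell markers in lung were highest in mice 8, 14 and 20, at 5.27, 4.84 and 4.56. In forestomach, mouse 2 had lung markers at 5.73 and mouse 5 fat cell markers at 6.36, liver markers were highest in mice 10 and 15, at 4.47 and 4.32, and glandular stomach markers (Gkn1, Gkn2, Tff1, Muc5ac) ranged from 0.28 to 7.80. In these bulk samples, fewer cells of a type and less RNA per cell cannot be told apart.

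In vehicle mice, the repressor Nfil3 was highest in liver, lower in forestomach and lowest in lung, and Clock was highest in forestomach. Nfil3 levels of mice 1 to 5 were -0.04, 0.70, 0.54, 1.31 and 1.06 in liver, -1.72, -0.68, -0.78, -0.73 and -1.21 in forestomach, and -2.23, -1.06, -1.71, -1.68 and -2.15 in lung. Each mouse had more Nfil3 in liver than in its lung or forestomach, and the liver values did not overlap with those of either. Liver exceeded lung 5.59-fold (lung minus liver -2.48 on the log2 scale, SE 0.23, limma adjusted p = 6.63e-14) and forestomach 3.33-fold (1.74, SE 0.23, limma adjusted p = 3.84e-09), and forestomach exceeded lung 1.68-fold (0.74, SE 0.23, limma adjusted p = 0.00543).

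Clock levels of the same mice were 1.79, 0.49, 0.72, 2.26 and 2.25 in forestomach, 0.32, 0.44, 0.15, 0.73 and 0.51 in lung, and 0.01, 0.25, 0.64, 0.58 and 0.40 in liver. The forestomach of mice 2 and 3 overlapped with the other tissues, whereas mice 1, 4 and 5 lay well above them. Glandular stomach markers were at 6.61 and 5.96 in the forestomach of mice 2 and 3 and at 1.85, 1.65 and 1.08 in that of mice 1, 4 and 5, and their part in the Clock level was not tested. The mean was 2.10-fold higher in forestomach than in lung (limma adjusted p = 0.000505) and 2.18-fold higher than in liver (limma adjusted p = 0.000213). Lung and liver differed by 0.06 (SE 0.26, limma adjusted p = 0.87), and this small difference changed sign to -0.13 with the deposited ratios.

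Arntl, the partner of Clock, had vehicle means of 0.38 ± 0.64 in liver, 0.06 ± 0.50 in forestomach and -0.26 ± 0.37 in lung (SD, n = 5). Without a block for the mouse, the tissues were not called as different: lung was 1.56-fold below liver (log2 difference -0.64, SE 0.35, limma adjusted p = 0.107). A number is the same animal in each tissue, and a block for the mouse lowered the SE of that difference to 0.24 (limma adjusted p = 0.0204). A call needed both 1.5-fold and an adjusted p no higher than 0.05. By this rule lung differed from liver for 1 of the tested genes (2 with the block) and from forestomach for 2, and the other pair, liver against forestomach, for 2. Of all 33255 probes, 44.4%, 33.2% and 39.2% were called in these 3 comparisons. The limma calls for Nfil3 and Clock were kept when mouse 1, 2 or 5 was left out, with Nfil3 in lung minus forestomach between -0.83 and -0.70.

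**Figure D1:**
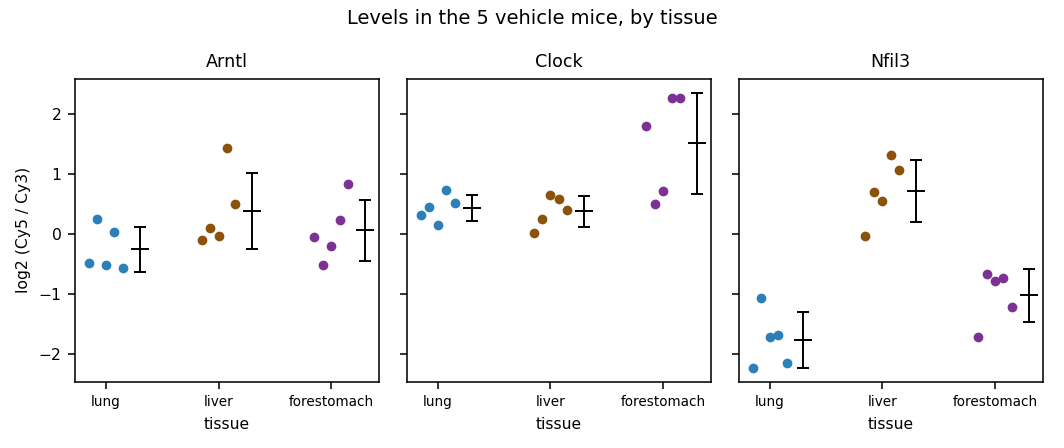
Log2 Cy5/Cy3 of Arntl, Clock and Nfil3 in the 5 vehicle mice (D0) of each tissue, with 1 point per mouse and bars for the mean and SD. Nfil3 runs from about -2 in lung to above 0 in most livers, and forestomach Clock holds mice both near 0.5 and near 2.

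With BghiP, lung Nfil3 and lung Arntl had lower means at the upper doses, but no dose of any tissue passed the test over all probes. In lung, Nfil3 levels were -2.23, -1.06, -1.71, -1.68 and -2.15 at D0, -2.29, -2.14, -2.12, -1.54 and -1.90 at D1, -2.54, -2.37, -2.0, -1.94 and -2.54 at D2, and -2.56, -2.28, -2.33, -2.39 and -2.53 at D3. All 5 mice at D3 lay below all 5 vehicle mice, though the highest of them (-2.28) was close to the lowest vehicle mouse (-2.23), and the means stepped from -1.77 ± 0.47 over -2.0 ± 0.29 and -2.28 ± 0.29 to -2.42 ± 0.12 (SD, n = 5). Nfil3 was the 1 tested gene of the group with D3 below D0 without overlap in lung, where 0.384% of all probes had that pattern, and 0 were found in liver (1.81% of probes) and forestomach (0.136%). The D3 difference was -0.65 (SE 0.19, 1.57-fold, limma adjusted p = 0.786). With the slide as a block the SE was 0.15 and the limma adjusted p = 0.0566. On each of the 5 slides lung Nfil3 was lower at D3 than at D0, by -1.22 to -0.33, and also at D2, by -1.31 to -0.26. Each of these differences compares 1 mouse with 1 other, and the share of all probes lower on every slide was not computed. With the slide as a block, the limma p before adjustment was under 0.05 for 15.6% of lung probes at D3 and 12.3% at D2. Such slide counts therefore cannot show whether a gene stands out from other probes, and this also holds for those given below. The D3 difference rested in part on mouse 2, which had the highest Nfil3 level of all lungs, and was -0.48 without it. It was -0.77 without mouse 1 and -0.62 without mouse 20, whose lungs carried markers of other tissues.

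Lung Arntl levels were -0.49, 0.24, -0.52, 0.04 and -0.57 at D0, -1.18, -0.41, -0.32, 0.48 and 0.14 at D1, -0.97, -1.46, -0.65, -0.54 and -1.68 at D2, and -1.58, -0.14, -1.17, -0.73 and -0.82 at D3. The groups overlapped at each dose, while every D2 mouse lay below the vehicle mean of -0.26. The mean was 1.74-fold lower at D2 (-0.80, SE 0.30, limma adjusted p = 1) and 1.54-fold lower at D3 (-0.63, SE 0.30, limma adjusted p = 0.998), and 0.00 apart at D1. With the slide as a block the limma adjusted p was 0.236 at D2 and 0.246 at D3. Arntl was lower on all 5 slides at D2 (-1.70 to -0.13) and at D3 (-1.08 to -0.25). Without mouse 2 the D3 difference was -0.50. Lung Clock stayed within 0.25 of its vehicle mean at every dose (limma adjusted p of 0.998 or more). At D2 it was lower on all 5 slides (-0.48 to -0.05), and with the slide as a block the limma adjusted p was 0.28.

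In liver, the lowest values of Arntl and Nfil3 were those of mice 12 and 15, both at D2. Arntl levels were -0.11, 0.10, -0.03, 1.43 and 0.50 at D0, -0.83, -0.02, 1.15, 0.94 and 0.28 at D1, 0.20, -1.47, 0.04, 0.35 and -1.67 at D2, and -0.26, 1.14, -0.56, 0.04 and 0.43 at D3. The D2 mean was 1.85-fold below vehicle (-0.89, SE 0.43, limma adjusted p = 0.995) and the D3 mean 1.16-fold (-0.22, SE 0.43, limma adjusted p = 0.883), with overlapping groups at each dose. Leaving out 1 mouse, the D3 difference of Arntl ranged from -0.47 to 0.04, above 0 without mouse 4. Nfil3 levels in liver were 0.15, 0.67, 1.38, 0.67 and 0.73 at D1, 0.42, -0.36, 0.09, 0.65 and -0.40 at D2, and 0.51, 0.78, 0.20, 0.36 and 0.13 at D3. The D2 mean lay 1.55-fold below vehicle (-0.63, SE 0.24, limma adjusted p = 0.995) and the D3 mean 1.25-fold (-0.32, limma adjusted p = 0.634). Leaving out 1 mouse, the D3 difference of Nfil3 ranged from -0.51 (without mouse 1, limma adjusted p = 0.343) to -0.17. The 3 liver slides did not run the same way for Nfil3, with differences of 0.07, -0.83 and -0.76 at D2 and of 0.68, -0.72 and -0.64 at D3. Arntl was lower on all 3 at D2 (-0.96 to -0.53), but at D3 its differences were 0.55, -1.26 and -0.07. Clock in liver had means of 0.38, 0.41, 0.16 and 0.19 from D0 to D3.

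In forestomach, Nfil3 means went from -1.02 ± 0.45 at D0 to -1.44 ± 0.15 at D3 (SD, n = 5). All 5 D3 mice lay below the vehicle mean but above the lowest vehicle mouse, and the difference was -0.42 (SE 0.22, 1.33-fold, limma adjusted p = 1). By slide it ran from -0.70 to 0.12, above 0 on 1 of 5. Arntl means lay between 0.01 and 0.22 at the 4 doses. Clock means were 1.5 ± 0.85, 1.02 ± 0.67, 1.25 ± 0.58 and 1.78 ± 0.19 from D0 to D3 (SD, n = 5), and the limma adjusted p of its changes was 0.697 or more. Glandular stomach markers differed between the same mice, from 1.08 to 6.61 at D0, 2.13 to 7.80 at D1, 0.99 to 6.90 at D2 and 0.28 to 6.43 at D3. Thus 0 of the 3 tested genes were called at D1, D2 or D3 in lung, liver or forestomach, where 0% of the 31022, 25893 and 25070 probes were called at any of these doses. Before adjustment, limma p-values under 0.05 were given to lung Nfil3 at D2 and D3, lung Arntl at D2 and liver Nfil3 at D2. The share of all probes with such a p was 3.4% in lung and 4.13% in liver at D2, while at D3 it was 4.8% (lung), 12.2% (liver) and 1.51% (forestomach). With slide as a block, 0 of the 3 genes were called at D3, against 0.0677%, 0.0927% and 0% of probes.

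**Figure D2:**
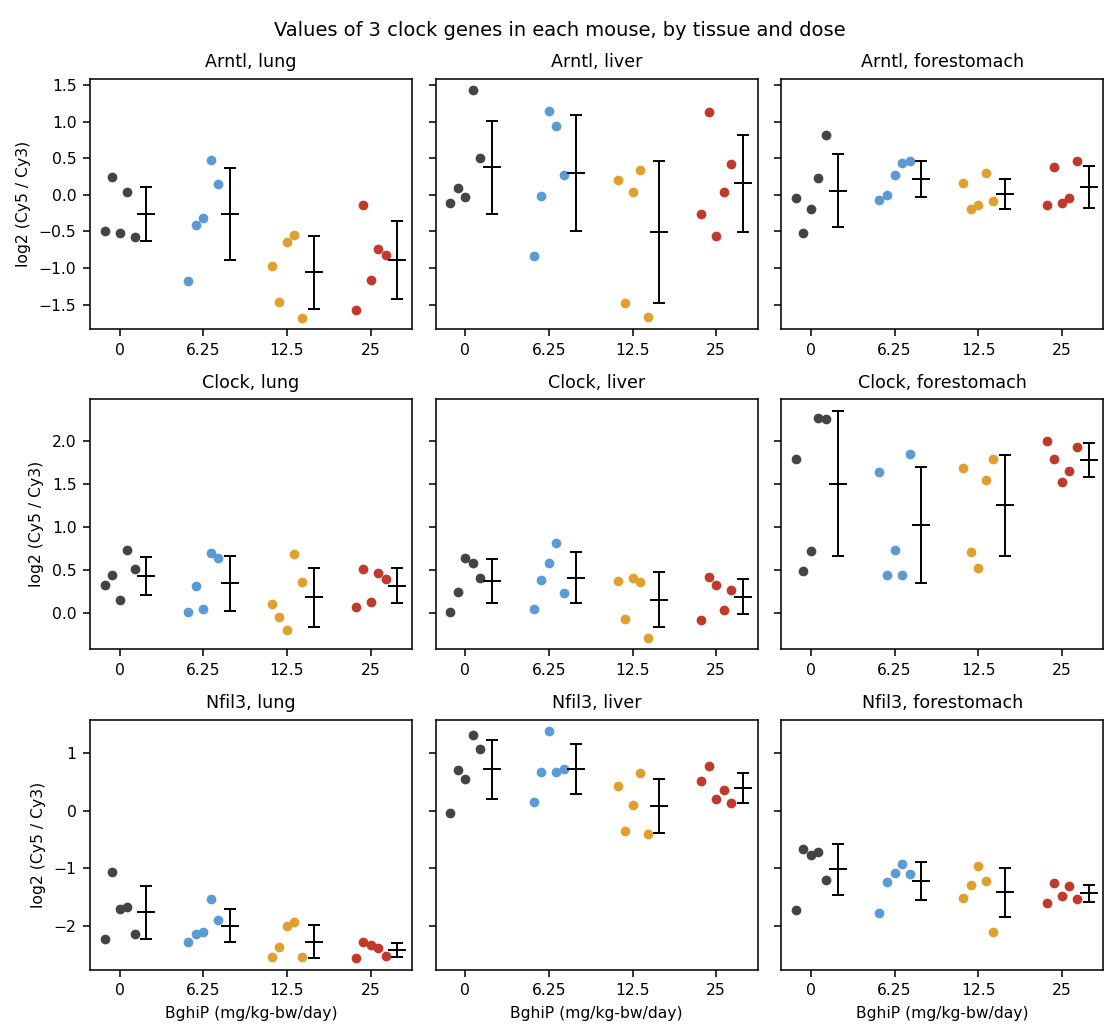
Log2 Cy5/Cy3 of the tested genes by dose of BghiP and tissue, 1 point per mouse, with bars for the mean and SD of the 5 mice. In lung the 5 D3 mice lie below all vehicle mice for Nfil3, whereas Arntl at D2 and D3 overlaps with vehicle.

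A slope on dose gave the same picture, with 0 of the 3 genes called in each tissue, while 0% (lung), 0.239% (liver) and 0% (forestomach) of all probes were. In lung the slope of Nfil3 was -0.026 per mg/kg-bw/day (SE 0.00708, limma adjusted p = 0.722, with slide as a block 0.0589), and that of Arntl was -0.0295 (SE 0.0123, limma adjusted p = 0.987, with slide as a block 0.219). The block called 0.306%, 2.63% and 0% of all probes for a slope, and 0 of the 3 genes. Whether the D3 change differed between tissues was tested in 1 model of all 12 groups. No gene was called as different, and neither was any probe (0% in each of the 3 comparisons of tissues, with 984, 688 and 1416 of 33255 probes under an unadjusted p of 0.05). For Arntl the lung change lay 0.68 below the forestomach change, with an SE of 0.50.

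The 23 other clock genes, of which 20 were tested in lung, 20 in liver and 18 in forestomach, gave 0 calls at D1, D2 or D3. At D3 the mean lay above vehicle for 14 of 20 (lung), 16 of 20 (liver) and 13 of 18 (forestomach), with median changes of 0.08, 0.15 and 0.10. The largest changes at D3 in lung were those of Dbp, a D-box activator (1.39, SE 0.49, limma adjusted p = 0.899), and Nr1d1, the repressor of Arntl and Nfil3 (1.16, SE 0.30, limma adjusted p = 0.746), followed by Hlf (0.40). With slide as a block, Nr1d1 alone passed in lung (2.23-fold, limma adjusted p = 0.0482). In liver they were Dbp (1.15, SE 0.61), Nr1d1 (0.99, SE 0.35, limma adjusted p = 0.26) and Nr1d2 (0.51), and in forestomach Dbp (0.89), Rora (0.48) and Nr1d1 (0.37). The vehicle mean of Dbp held a low mouse in liver (-2.39, against a median of 0.55) and in forestomach (-3.20, against -1.22). The Dbp changes without these mice were not computed.

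Mice of 1 dose differed widely in Arntl. Over the 20 mice, Arntl spanned 8.57-fold in liver, 4.47-fold in lung and 2.53-fold in forestomach. Its SD within dose groups was 0.78 in liver, larger than that of 99.5% of the probes tested there, 0.52 in lung (93.7%) and 0.33 in forestomach (59.2%). Nfil3 spanned 3.45-fold in liver, with an SD of 0.43 (96.4%), 2.82-fold in lung (SD 0.32, 80.6%) and 2.69-fold in forestomach (SD 0.36, 64.2%). The median SD over all probes was 0.20 in lung, 0.19 in liver and 0.29 in forestomach. Mouse 15 had the lowest Arntl in lung and in liver, and the lowest Nfil3 in liver and in forestomach.

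Mice with low Arntl in liver tended to have low Arntl in lung and in forestomach. Lung and liver levels of Arntl correlated over the 20 mice with Pearson's r = 0.77 (permutation p = 6e-05, adjusted over 15 relations 0.00045) and Spearman's rho = 0.70 (permutation p = 0.00086, adjusted 0.0043), and r was 0.69 without mice 15 and 9, the farthest from the lung median. Lung and liver arrays of a mouse never shared a slide. Liver and forestomach correlated with r = 0.57 (permutation p = 0.00913, adjusted 0.0342) and rho = 0.72 (permutation p = 6e-04, adjusted 0.0043), with r = 0.57 without mice 15 and 12. By r this relation missed the threshold with processed signals (0.44, permutation, adjusted p = 0.116) and when mouse 8, 9, 12, 17 or 18 was left out, where the adjusted p rose to 0.0684 at most. For lung and forestomach, r was 0.32 (permutation p = 0.168, adjusted 0.252) and rho 0.35 (permutation p = 0.128, adjusted 0.24), and without mice 15 and 9 r was 0.22. Without mouse 2, whose forestomach carried lung markers and had the lowest Arntl, r was 0.57 (permutation, adjusted p = 0.027).

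Nfil3 showed the closest relation between lung and forestomach, with r = 0.82 (permutation p = 2e-05, adjusted 3e-04), rho = 0.88 (permutation p = 1e-05, the smallest that 100000 permutations can give, adjusted 0.00015) and r = 0.82 without mice 2 and 9. Liver and forestomach gave r = 0.63 (permutation p = 0.00265, adjusted 0.0132) and rho = 0.67 (permutation p = 0.00165, adjusted 0.00619), with r = 0.58 without mice 15 and 12. Lung and liver gave r = 0.47 (permutation p = 0.0377, adjusted 0.0943) and rho = 0.57 (permutation p = 0.00992, adjusted 0.0266), and r = 0.54 without mice 2 and 9.

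Dose means were then removed, and the values permuted within doses. Arntl kept r = 0.76 between lung and liver (permutation, adjusted p = 0.0128) and 0.58 between liver and forestomach (permutation, adjusted p = 0.0332), and Nfil3 kept 0.78 between lung and forestomach (permutation, adjusted p = 0.0128). Nfil3 between liver and forestomach already missed the threshold at this step (r = 0.58, permutation, adjusted p = 0.0764). With the slide means removed as well, these 3 correlations were 0.68, 0.71 and 0.57 (permutation, adjusted p = 0.00967, 0.0072 and 0.0425). Nfil3 then had r = -0.02 between lung and liver, and 0.45 between liver and forestomach (permutation, adjusted p = 0.18). Lung and forestomach of a mouse shared a slide, and the median correlation of their deviations over all probes was 0.25, against 0.07 for lung and liver and 0.01 for liver and forestomach. Clock did not pass between lung and liver (r = 0.26, permutation p = 0.273, adjusted 0.373). In all, 5 of 15 relations passed, of which 4 were positive and involved Arntl or Nfil3. The other was a negative one of Cry1 between liver and forestomach (r = -0.53, permutation, adjusted p = 0.0483), which is a relation between spots that were not above background.

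**Figure D3:**
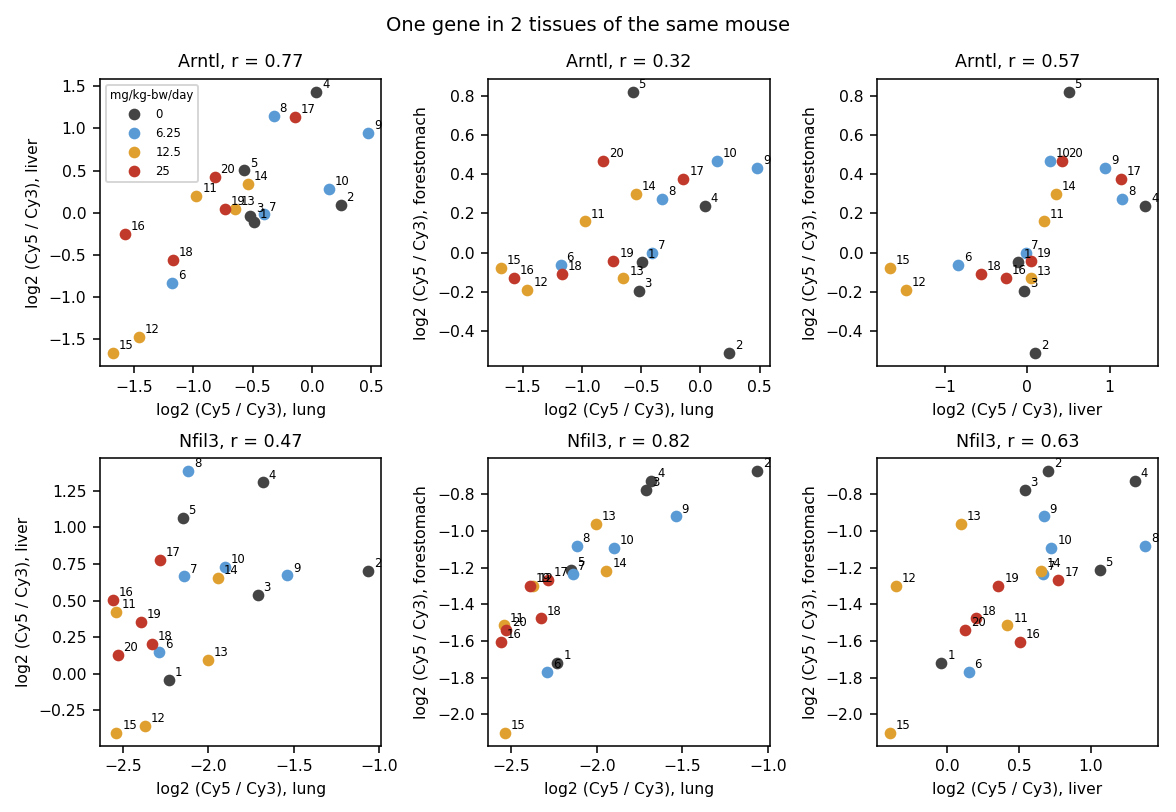
Levels (log2 Cy5/Cy3) of Arntl and Nfil3 in one tissue against another tissue of the same mouse, 1 point per mouse, labelled with its number and coloured by dose. Arntl in lung and liver (r = 0.77) and Nfil3 in lung and forestomach (r = 0.82) line up most closely, with mice of every dose along the trend.

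Within a tissue, Arntl and Nfil3 varied together in lung and in liver. In lung r was 0.79 (permutation p = 3e-05, adjusted over 30 relations 3e-04), rho 0.84 (permutation p = 2e-05, adjusted 6e-04) and r 0.74 without mice 15 and 9. In liver r was 0.85 (permutation p = 3e-05, adjusted 3e-04), rho 0.79 (permutation p = 4e-05, adjusted 6e-04) and r 0.75 without mice 15 and 12. In forestomach r was 0.03 (permutation p = 0.894), rho 0.03 and r 0.08 without mice 5 and 20. Whether the relation differed between tissues was not tested. Such pairs share an array and its normalization.

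Arntl and Clock, which act as a pair, correlated in liver with r = 0.78 (permutation p = 6e-05, adjusted 0.00045), rho = 0.70 (permutation p = 0.00092, adjusted 0.0069) and r = 0.64 without mice 15 and 12. In lung they gave r = 0.61 (permutation p = 0.00454, adjusted 0.0195), rho = 0.60 (permutation p = 0.00611, adjusted 0.0305) and r = 0.64 without mice 15 and 9. The lung relation missed the threshold with dose means removed (r = 0.58, permutation, adjusted p = 0.0604) and without mouse 9 (r = 0.55, permutation, adjusted p = 0.0532). Clock and Nfil3 correlated in liver with r = 0.70 (permutation p = 0.00059, adjusted 0.00354), rho = 0.64 (permutation p = 0.00327, adjusted 0.0196) and r = 0.66 without mice 15 and 9. With dose means removed it passed by r (0.63, permutation, adjusted p = 0.0448) and not by rho (0.52, permutation, adjusted p = 0.152). In lung this pair did not pass (r = 0.39, permutation p = 0.0863, adjusted 0.192, rho = 0.44, permutation, adjusted p = 0.13), although it did with processed signals (r = 0.63, permutation, adjusted p = 0.0295). Including 3 pairs with Npas2, a gene near background, 8 of the 30 relations passed, against 7 with dose means removed and 6 with slide means removed as well. With both removed, Arntl and Nfil3 had r = 0.57 in lung (permutation, adjusted p = 0.0444) and 0.81 in liver (permutation, adjusted p = 9e-04), and Arntl and Clock 0.60 in lung (permutation, adjusted p = 0.0343) and 0.79 in liver (permutation, adjusted p = 0.00135). For this setting the values were again permuted freely over the mice, so the p-values can be too small. The strongest pair with Npas2 was Clock with Npas2 in lung (r = 0.81, rho = 0.79, r = 0.75 without mice 13 and 4, permutation p = 3e-05 and 9e-05), where the Npas2 probe was above background on 3 arrays. It missed the threshold with dose and slide means removed (r = 0.52, permutation, adjusted p = 0.0664).

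In lung Arntl correlated negatively with 12 of the 20 other clock genes tested and in liver with 11 of 20 (10 by rho), while 0 positive relations passed. The weakest that passed was Usp2 in lung (r = -0.62) and Hlf in liver (r = -0.51), and 0.322% and 1.56% of all other tested probes were at least as negative. In forestomach 1 of 18 passed (3 by rho), and 0.634% of probes were as negative as this gene, Per1. With dose and slide means removed, 13, 12 and 5 passed by r, all negative, and 14, 11 and 2 by rho, all negative but Csnk1e in lung. These passes rest on free permutation of the mice as well, so their p-values can be too small. In forestomach Per1 (-0.53), Dbp (-0.58) and Bhlhe40 (-0.51) then missed the threshold by rho (permutation, adjusted p = 0.0802, 0.0511 and 0.0802), and Per3 and Nr1d2 passed by both. Dbp was the closest counterpart in lung, with r = -0.93, rho = -0.92 and r = -0.91 without mice 15 and 9 (permutation p = 1e-05 for both, adjusted 2e-04 and 1e-04). In liver Dbp had r = -0.92, rho = -0.95 and r = -0.91 without mice 15 and 12 (permutation p = 1e-05 for both, adjusted 4e-05 and 6.67e-05). In forestomach the same pair had r = -0.44, rho = -0.51 and r = -0.55 without mice 5 and 20 (permutation p = 0.0497 and 0.0225, adjusted 0.128 and 0.081), and it passed by r with dose and slide means removed (-0.61, permutation, adjusted p = 0.0192).

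Per1, an inhibitor of the BMAL1 and CLOCK pair whose promoter is printed above, was the gene that passed in forestomach, with r = -0.66, rho = -0.73 and r = -0.74 without mice 5 and 20 (permutation p = 0.00133 and 0.00034, adjusted 0.0239 and 0.00612). In lung its r with Arntl was -0.76 and in liver -0.84. Per3 reached -0.81 in lung and -0.81 in liver, and -0.60 in forestomach, where it missed the threshold by r (permutation p = 0.0056, adjusted 0.0504) and passed by rho (-0.64, permutation, adjusted p = 0.0256). With dose and slide means removed Per3 passed there by r (-0.57, permutation, adjusted p = 0.029) and by rho (-0.64, permutation, adjusted p = 0.0228). Tef, a relative of Dbp, had r of -0.77 in lung and -0.92 in liver. Nr1d1 and Nr1d2 had r of -0.72 and -0.78 in lung and of -0.48 and -0.57 in liver, where Nr1d1 missed the threshold by r (permutation, adjusted p = 0.0529) and passed by rho (-0.57, permutation, adjusted p = 0.0203). With dose and slide means removed Nr1d1 in liver passed by neither (r = -0.33, rho = -0.24, permutation, adjusted p = 0.23 and 0.392). Hlf in liver rested on mice 15 and 12, since its r of -0.51 was -0.22 without them, and Hlf and Cry2 in liver missed the threshold by rho (permutation, adjusted p = 0.109 and 0.19). Rora, an activator at ROR elements, and the kinase gene Csnk1d did not pass in any tissue by r or rho, with or without dose and slide means. Another kinase gene, Csnk1e, passed once, as a positive relation by rho in lung with dose and slide means removed (rho = 0.48, permutation, adjusted p = 0.0482, against r = 0.43, permutation, adjusted p = 0.0844).

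**Figure D4:**
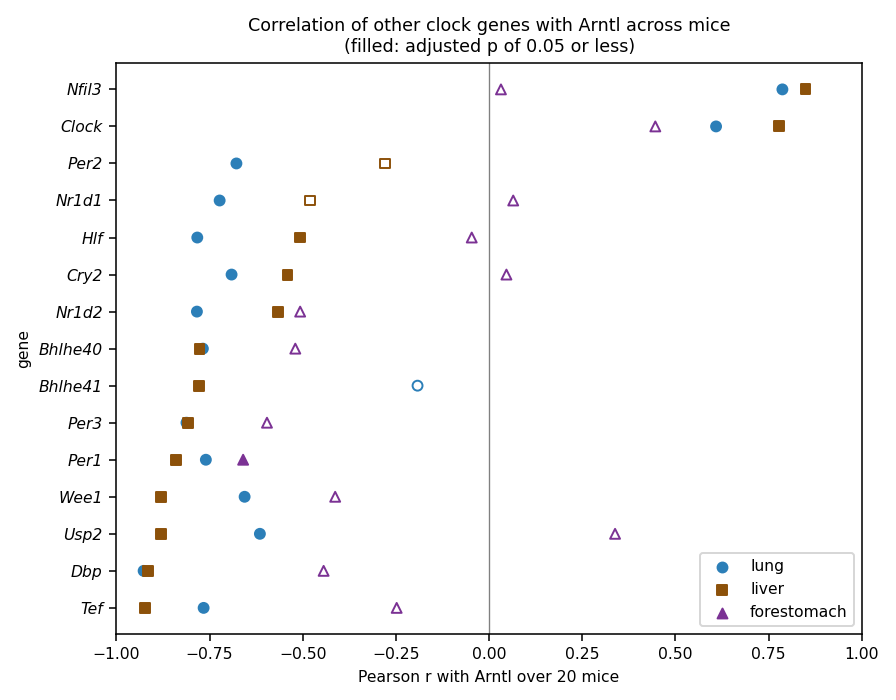
Pearson's r of Arntl with the clock genes that passed in at least 1 tissue, over the 20 mice of each tissue, with Clock and Nfil3 at the top and filled points where the adjusted permutation p was 0.05 or less. Dbp lies at the negative end in lung and, together with Tef, in liver, and Nfil3 and Clock have the positive filled points.

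Over all 60 arrays, after the mean of each tissue was removed, the pattern of Arntl was compared with that of 11688 genes as a description. The genes most like it were Nfil3 (r = 0.68), the tubulin gene Tubb2a (0.60) and Clpx, which encodes a mitochondrial chaperone subunit (0.58). Clock was at rank 30 with 0.46. The genes most opposite were Dbp (-0.82), Per3 (-0.79) and Per1 (-0.79). With dose and slide means removed as well, Clpx came first (0.77) and Nfil3 followed (0.68). The points share arrays, slides and animals.

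Forestomach Clock fell into 2 separate ranges, with no mouse between 0.74 and 1.52. The lower range, 0.44 to 0.74, held 7 mice (2 at D0, 3 at D1, 2 at D2 and 0 at D3), and the upper one, 1.52 to 2.26, held 13 (3, 2, 3 and 5). In the 7 mice the mean level of the 4 glandular stomach markers ran from 5.96 to 7.80, and in the 13 from 0.28 to 7.17, with 3 of the 13 at or above 5.96. Squamous markers lay between 3.16 and 3.38 in the 7 mice and between 2.85 and 3.88 in the 13, and the share of probes above background was 21.3% to 37.5% and 25.6% to 53.3%. The 7 arrays were on 3 of the 5 slides. Within each range, Clock did not correlate with the share of probes above background after adjustment (r = -0.52 over the 7 mice and 0.38 over the 13, rho -0.64 and 0.24, r -0.81 and 0.28 without 2 arrays, exact permutation p = 0.21 and permutation p = 0.21) or with the glandular markers (r = -0.73 and -0.18, rho -0.79 and 0.01, r -0.56 and -0.05 without 2 arrays, exact permutation p = 0.077 and permutation p = 0.56). The smallest of these 4 adjusted p was 0.28 by r and 0.19 by rho. The ranges were cut on the Clock values themselves, which leaves little spread of Clock within each. These correlations therefore cannot show whether Clock varies with the share of probes above background or with the glandular markers. The same limit holds for the other relations within ranges given below. Correlations of forestomach Clock over all 20 mice pool the ranges and entered the counts of 15 and 30 relations and the pattern over 60 arrays. The rank of Clock in that pattern, and its pooled r listed with the processing settings, mix the ranges, and no conclusion is drawn from them. The part of the markers, of brightness and of the slide in the gap between them was not tested. Within each range, with the lung of the same mouse r was -0.59 over the 7 mice and 0.36 over the 13, and none of the 8 relations with Clock in lung and liver and with Arntl and Nfil3 in forestomach passed (permutation, smallest adjusted p = 0.43).

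The share of probes above background was also set against the other tested genes. In forestomach, the relation of Arntl passed by r alone and that of Nfil3 did not pass. Over all 20 mice, forestomach Clock was higher on arrays with a larger share and passed by both r and rho (permutation, adjusted p = 0.0133 and 0.0426). That relation pools the 2 ranges of Clock, so its r is not given. For Arntl r was 0.56, rho 0.52 and r 0.66 without the 2 arrays farthest from the median share (permutation p = 0.0099 and 0.019, adjusted over 15 relations 0.0495 and 0.0844). For Nfil3 r was -0.54, rho -0.52 and r -0.32 without 2 arrays (permutation p = 0.014 and 0.022, adjusted 0.0535 and 0.0844). In liver, where Arntl varied most, its r with that share was -0.05 (rho -0.25, r -0.03 without 2 arrays, permutation p = 0.82 and 0.29), and in lung it was -0.14 (rho -0.18, r -0.17 without 2 arrays, permutation p = 0.54 and 0.44).

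**Figure D5:**
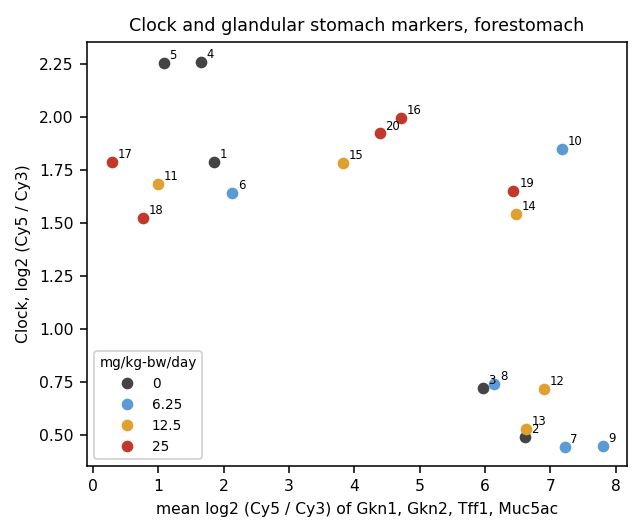
Forestomach Clock (log2 Cy5/Cy3) against the mean level of 4 glandular stomach markers (log2 Cy5/Cy3), 1 point per mouse, labelled with its number and coloured by dose. The 7 mice with Clock at 0.74 or less have glandular markers at 5.96 or more, and the 5 D3 mice are all at 1.52 or more for Clock.

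Npas2 and Cry1 were near background in the reference channel as well as in the samples, so their ratios compare dim signals and say little about their level relative to the reference. Npas2 had vehicle means of 0.36 ± 0.11 in lung, 0.17 ± 0.17 in liver and 0.40 ± 0.25 in forestomach (SD, n = 5), and all group means of Cry1 lay between -0.18 and 0.10. Cry1 in lung was 0.08 ± 0.09 at D0 and -0.18 ± 0.10 at D3 (SD, n = 5), without overlap, but on 0 of these arrays above background, so no direction is given for it.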

How the data were processed

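Per the file headers, the deposited scanner files hold median signal intensity, processed signal intensity and quality flags of 2-colour arrays (62976 spots, 3671 of them controls), written by Feature Extraction 10.7.3.1 on build mm9. The authors also deposited log2 ratios of Cy5 to Cy3, which were LOWESS-normalized median signals with no background subtracted. Here, log2 ratios of median signals were normalized by loess within arrays (limma 3.58.1, R 4.3.3, data.table, version 1.17.8) and correlated with the deposited log2 ratios at 0.992 to 0.999. Spots with an outlier flag (0.46%) were set to missing, none was saturated, and control spots were left out. RefSeq accessions were matched to RefSeq genes of GRCm38.p6, used for names, gene positions and promoters, and 26413 of 55681 probes (47.4%) had a symbol.

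In each tissue, probes with Cy5 above background on 5 or more of 20 arrays were fitted with lmFit and eBayes over the 4 dose groups, with Benjamini-Hochberg adjustment over all probes tested. limma took the place of the MAANOVA test named in the study's methods. Differences between tissues came from a model of 12 groups on 33255 probes. Correlations used 100000 two-sided permutations, within doses where dose means alone were removed and freely over the mice otherwise. Free permutation takes no account of dose and slide means that were removed, so p-values of that setting can be too small. The number of arrays, 5 per group, limits precision. On simulated data with independent noise, 85, 98 and 67 of 100 randomly picked probes changed 2-fold were recovered in lung, liver and forestomach. Arntl and Nfil3 varied more between mice than most probes in lung and liver. These shares therefore need not hold for them, and their own recovery was not simulated. Mouse numbers mark the same animal in each tissue. The median correlation of same-numbered arrays over all probes was 0.07, 0.25 and 0.01.

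The genes, the lists and the alternatives were chosen with earlier results of these data known. The genes named are the 5 themselves, other clock genes called at any dose, the 3 of these with the largest change at D3 per tissue, and the 3 most and least like Arntl. Further clock genes named for their correlations, and the ranges of forestomach Clock, were chosen after their values were seen. Alternatives were normexp correction (offset 50), processed signals, deposited ratios, Aquantile normalization (which leaves ratios as they are), no filter, a filter on all 20 arrays, a slide block, a variance trend with robust estimation, a mouse block, removal of dose and slide means, and leaving out each mouse. Values of 1 of the other clock genes are not reported here.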

Additional observations from a re-analysis of the deposited data

Results flagged for a closer look

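In forestomach of vehicle mice, mouse 5 had the highest Npas2 level, 0.839, far from the next of the 5 mice at 0.353, with a gap of 0.781 of the whole range. The Npas2 probe was above background on 1 of these 5 arrays, and the same array had the highest fat cell markers of forestomach (6.36). The part of these in the value was not tested. Of 60 groups examined, chance alone flags about 1 in 20, and 0 of the 36 groups of Arntl, Clock and Nfil3 held such a mouse.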

How the results depend on the processing

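Under the alternatives, 0 of the tested genes were called at any dose, for a slope or for a difference between tissues in the D3 change. Of the values recomputed with another setting, 586 kept their direction and side of the threshold. Another 10 changed sign, 7 counts moved, 2 values came under the threshold and 4 lost it. The 586 include values that could not move, such as those under Aquantile normalization and the size of changes under another filter, so they are no measure of robustness. With processed signals, the change of Arntl at D1 in lung was -0.0257, of Nfil3 at D1 in liver -0.0434 and of Arntl at D2 in forestomach 0.0883, the difference in the Clock change at D3 between lung and liver was -0.0191, and 3 of 15 correlations between tissues passed (not Arntl between liver and forestomach), while Clock with Nfil3 in lung passed (r = 0.63, permutation, adjusted p = 0.0295). With deposited ratios, the D1 changes of Arntl in lung and Nfil3 in liver were -0.0056 and -0.0117, Clock in lung minus liver was -0.13, r of Arntl with Nfil3 in forestomach was -0.0113, and Arntl passed with 6 other clock genes there. With slide as a block, 1 other clock gene was called at D3 in lung. With dose means removed 3 of 15 passed, and with slide means also removed 3 of 15, with r of Clock between liver and forestomach, pooled over the 2 ranges of the latter, 0.0344, of Nfil3 between lung and liver -0.0196, and 5 other clock genes passing with Arntl in forestomach (2 by rho). The cause was not tested. With mouse as a replicate block, 2 genes were called between lung and liver, and no other call changed.

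Leaving out each mouse, 3 to 6 of the 15 passed (3 without mouse 8, 9, 12, 15 or 18). Changes near 0 turned sign: Arntl at D1 ranged from -0.18 to 0.23 in lung and from -0.28 to 0.21 in liver, at D3 from -0.47 to 0.044 in liver, and in forestomach from -0.19 to 0.14 at D2 and from -0.0911 to 0.24 at D3. At D1 in liver, Clock ranged from -0.0645 to 0.13 and Nfil3 from -0.18 to 0.15. Clock in lung minus liver ranged from -0.0088 to 0.19, its D3 difference there from -0.0651 to 0.15, the D3 difference of Nfil3 in liver minus forestomach from -0.0106 to 0.23, and r of Arntl with Nfil3 in forestomach from -0.0457 to 0.25. The relation of Nfil3 between liver and forestomach missed the threshold without mouse 15 (permutation, adjusted p = 0.0566). No gene had a second probe to try.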
